A study of Mus musculus with 16 samples.

Results

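The transcript levels of 10 genes of bile acid synthesis, bile acid transport and the bile acid receptor FXR were described in cultured mouse hepatocytes. They were the rows whose mouse Ensembl ID maps to Cyp7a1, Cyp8b1, Cyp27a1, Cyp7b1, Baat, Slc10a1, Abcb11, Abcb4, Nr1h4 or Nr0b2, so 10 of the 55416 genes listed. RNA was sequenced from primary hepatocytes, which are liver cells kept for a short time in culture, in 16 samples that form 4 groups of 4. FLOX cells were labelled Alb-cre- and HKO cells Alb-cre+. In HKO cells the Cre recombinase is driven by the albumin promoter, which is active in hepatocytes, and the cross was made to remove Smpd3 from these cells. Smpd3 encodes a neutral sphingomyelinase, an enzyme that splits the membrane lipid sphingomyelin. Cells of both genotypes were kept for 24 h with vehicle or with palmitic acid at 0.4 mM, a saturated fatty acid. The sex and age of the mice, the solvent of the vehicle and whether the samples of a group came from separate mice are not stated in the sources used here. The p-values therefore reflect only how far these samples spread, and that spread may be technical.

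Bile acids are made from cholesterol in hepatocytes. The classical route starts with the cholesterol hydroxylase CYP7A1, and the other, often called the acidic route, starts with the mitochondrial sterol hydroxylase CYP27A1 and continues with the oxysterol hydroxylase CYP7B1. CYP8B1 directs the product towards cholic acid, and BAAT joins the finished acid to taurine or glycine. NTCP (Slc10a1) takes bile acids up from blood, BSEP (Abcb11) exports them into bile, and MDR2 (Abcb4) moves phosphatidylcholine into bile. FXR (Nr1h4) is a nuclear receptor that bile acids activate. It is known to raise Abcb11 and the repressor SHP (Nr0b2), which in turn lowers Cyp7a1 and Cyp8b1.

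The promoter sequences shown here are those of the receptor and of the pair of exporters, because these 3 genes differed between the genotypes in both treatments, in unlike directions. Cyp27a1 and Baat also differed in both treatments, being lower in HKO, and are not shown. Each sequence is the 250 bases before the annotated start, 5′ to 3′ on the strand of the gene, from the RefSeq promoter table (GRCm38.p6). Capitals mark the nuclear receptor motif AGGTCA or its reverse complement TGACCT, and in Abcb11 the 13 bases of an inverted repeat of that motif. The Abcb11 window is chr2:69342617-69342866 on the minus strand, the Abcb4 window chr5:8893471-8893720 on the plus strand, and the Nr1h4 window chr10:89506659-89506908 on the minus strand.
Abcb11: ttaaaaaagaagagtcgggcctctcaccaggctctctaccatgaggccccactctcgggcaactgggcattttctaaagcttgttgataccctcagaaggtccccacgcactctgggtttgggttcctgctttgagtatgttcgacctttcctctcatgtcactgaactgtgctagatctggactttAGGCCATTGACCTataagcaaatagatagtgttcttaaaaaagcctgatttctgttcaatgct
Abcb4: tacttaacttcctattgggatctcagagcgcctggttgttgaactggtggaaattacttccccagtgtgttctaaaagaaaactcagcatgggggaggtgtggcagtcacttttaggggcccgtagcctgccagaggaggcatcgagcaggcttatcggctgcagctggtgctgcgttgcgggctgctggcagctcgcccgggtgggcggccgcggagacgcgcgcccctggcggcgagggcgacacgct
Nr1h4: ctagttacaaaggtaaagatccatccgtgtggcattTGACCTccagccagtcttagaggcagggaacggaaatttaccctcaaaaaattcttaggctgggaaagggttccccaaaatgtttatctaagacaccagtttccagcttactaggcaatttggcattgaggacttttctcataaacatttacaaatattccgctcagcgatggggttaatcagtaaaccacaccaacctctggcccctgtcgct
The table matched 7 of the 10 genes in 8 windows. Cyp7a1, Cyp7b1 and Baat were not matched.

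The motif AGGTCA, read on both strands, was present in 3 of these 8 windows, those of Abcb11 and Nr1h4 and 1 of the 2 windows of Slc10a1. Among all 32851 promoter windows of the same length 14.0% hold it. The inverted repeat AGGTCANTGACCT, the form that FXR is best known to bind as a partner of RXR, occurred without mismatch in 2 windows (0.0061%), none of them from these genes. With up to 1 mismatch it occurred in 26 windows (0.0791%), and Abcb11 was the only one of the matched genes among them. Its letters were AGGCCATTGACCT, from 63 to 51 bases before the start, and they overlap the single TGACCT of that window. The search with 1 mismatch was added after this sequence had been seen. The direct repeat AGGTCANAGGTCA (0.0335% of windows) and the motif CAAGGTCA (1.33%) were in none of the 8 windows. The Abcb4 window had a GC content of 61.6%, against 46.4% for Abcb11, 44.4% for Nr1h4 and a median of 52.4% over all windows, and 4 of its bases are annotated as exon. These matches describe letters in short windows and no binding was measured.

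Levels are given as TPM, a relative abundance that gives a gene's share of all transcripts in a sample after division by transcript length, so levels of different genes can be set side by side. The depth cannot be read from TPM and is unknown, so the precision of a level is the spread within its group. Genes with at least 1 TPM in at least 4 samples were tested, 11858 in all, with limma on log2(TPM + 1), and an adjusted p below 0.05 was the threshold. A change on this scale understates the change of low genes. Smpd3 fell between FLOX and HKO from 31.98 ± 4.1 to 5.29 ± 0.71 TPM with vehicle and from 46.02 ± 2.4 to 7.82 ± 1.1 TPM with palmitic acid (mean ± SD, n = 4 each, as for all such values here). Its transcripts in HKO were 16.5% and 17.0% of the FLOX level. All 10 hepatocyte markers were tested, and their summed level was 57767 to 58422 TPM in FLOX with vehicle, 45124 to 46610 with palmitic acid, 61496 to 62721 in HKO with vehicle and 47449 to 48970 with palmitic acid. Markers of endothelial cells (3 of 7 tested) summed to at most 5.47 TPM, of stellate cells (0 of 7) to at most 2.24, of lymphocytes and neutrophils (0 of 7) to at most 0.46, and of erythroid cells (1 of 4) to at most 24.2. The macrophage markers (1 of 8 tested) summed to 48.7 to 55.1 and 56.0 to 68.6 TPM in FLOX and to 60.4 to 70.1 and 81.2 to 107.3 TPM in HKO, with vehicle and palmitic acid respectively. Nearly all of that was Cd68, while Adgre1 and Clec4f stayed at or below 0.08 and 0.47 TPM. The cholangiocyte markers (6 of 8 tested) summed to 208 to 220 and 224 to 271 TPM in FLOX and to 329 to 354 and 366 to 413 TPM in HKO. Spp1 made up most of this, with group means from 149 to 327 TPM, Epcam reached at most 0.80 TPM and Cftr was listed at 0 in all 16 samples.

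Replicate 1 of the FLOX vehicle group and replicate 1 of the FLOX palmitic acid group lay at opposite ends of the third principal component (7.53% of the variance). With both left out, the numbers of the 7 tested bile acid genes past the threshold were 6 and 5 with palmitic acid in FLOX and HKO, 5 and 4 between genotypes with vehicle and palmitic acid, and 0 for the interaction, against 6, 5, 5, 5 and 0 with them. Of all genes tested 44.7%, 47.6%, 13.8%, 10.5% and 0.17% passed in the same order with both left out. With both kept the shares were 34.4%, 42.5%, 11.7%, 9.74% and 0.194%.

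Of the 10 bile acid genes, 7 passed the filter and Cyp7a1, Cyp8b1 and Nr0b2 did not. The 7 were Cyp27a1, Cyp7b1, Baat, Slc10a1, Abcb11, Abcb4 and Nr1h4, and the lowest value of any of them in any sample was 3.46 TPM, so none passed through 1 group alone. In FLOX cells with vehicle the highest were Cyp27a1, which stood above 87.29% of the tested genes, and Nr1h4, above 83.78%. Baat (74.02%), Abcb11 (69.17%), Cyp7b1 (57.24%), Abcb4 (50.05%) and Slc10a1 (40.98%) followed in that order.

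Cyp7a1, the first enzyme of the classical route, was at or near 0 in these cultures. FLOX samples held 0.01, 0.04, 0.01 and 0.01 TPM with vehicle and 0.04, 0, 0 and 0.05 TPM with palmitic acid, and in HKO the only value above 0 was 0.04 TPM, in 1 vehicle sample. It was thus above 0 in 7 of 16 samples. Nr0b2, the repressor that FXR induces, was likewise above 0 in 7 of 16 samples, with 0, 0, 0.06 and 0.06 TPM in FLOX with vehicle, 0.06, 0.06, 0 and 0.05 with palmitic acid, 0, 0, 0.06 and 0 in HKO with vehicle and 0, 0, 0 and 0.27 with palmitic acid. Palmitic acid and vehicle samples of a genotype overlapped for both genes, and no fold change is given at such levels.

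Cyp8b1 (ENSMUSG00000050445), which steers synthesis towards cholic acid, was detected in all 16 samples but reached 1 TPM in only 2. The FLOX samples held 0.32, 0.46, 0.52 and 0.9 TPM with vehicle and 0.86, 1.16, 0.55 and 0.67 TPM with palmitic acid, and these overlapped. In HKO the values were 0.47, 0.61, 0.47 and 0.43 TPM with vehicle and 0.86, 0.64, 1.00 and 0.87 TPM with palmitic acid, where every treated sample was above every vehicle sample. An exact two-sided permutation test on log2(TPM + 1) gave p = 0.0286 in HKO, the smallest p that 4 against 4 samples allow, and 0.114 after adjustment over the 4 comparisons of this gene. With only 1 of the 4 comparisons at that smallest p, no adjusted p below 0.05 was possible. The adjusted miss therefore says nothing about the size of the change. In FLOX the exact p was 0.20 and the adjusted p 0.40, and between genotypes the exact p was 0.80 with vehicle and 0.83 with palmitic acid (adjusted p = 0.83 for both). With no filter on low values limma gave an adjusted p of 0.108 for the HKO response.

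**Figure D1:**
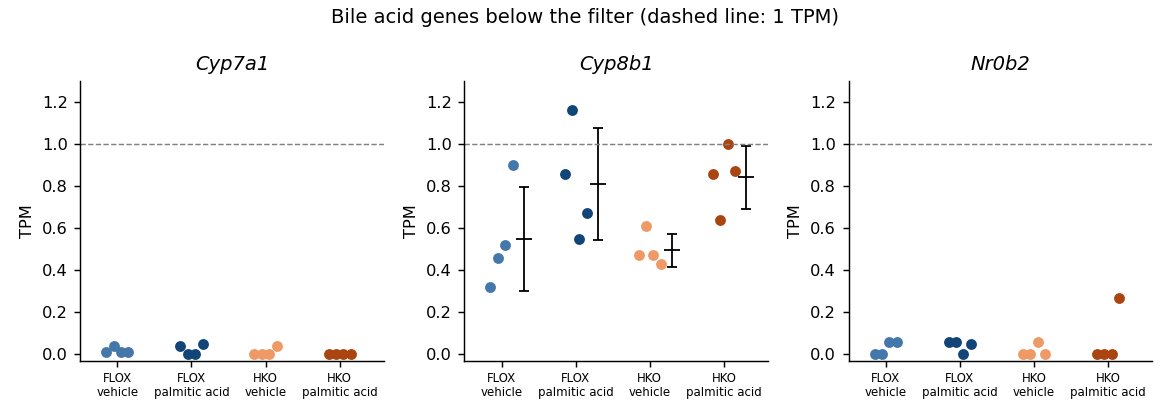
Level in TPM (y axis) of Cyp7a1, Cyp8b1 and Nr0b2 in the 4 groups (x axis), with 1 point per sample, and for Cyp8b1 the mean ± SD in black. All points of Cyp7a1 and Nr0b2 lie at or below 0.27 TPM, while the Cyp8b1 points lie between 0.32 and 1.16 TPM, around the filter of 1 TPM drawn as a dashed line.

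Palmitic acid lowered 6 of the 7 tested genes in FLOX cells and 5 of 7 in HKO cells, and raised none in either. The largest falls were in Baat, whose mean came to 44.9% of the vehicle level in FLOX and 45.9% in HKO, and Abcb4, at 52.0% and 50.8%. Nr1h4 did not pass the threshold in either genotype. For comparison, 34.4% of all genes tested passed in FLOX, 23.0% upward and 11.5% downward, and 42.5% in HKO, 29.4% upward and 13.1% downward. The median log2 change of the 7 genes was -0.44 in FLOX and -0.39 in HKO, beside 0.096 and 0.11 over all genes tested. Of the 10 hepatocyte markers 9 also fell in each genotype, with a median of -0.37 in FLOX and -0.28 in HKO. The part of this wider fall in the results for the bile acid genes was not tested, and in bulk samples fewer cells of a type and less RNA per cell cannot be told apart.

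The balance of rises and falls over all genes depended on scaling. Of the genes past the threshold 66.7% were higher with palmitic acid in FLOX and 69.3% in HKO, against 45.3% and 46.9% after median-ratio scaling and 50.4% and 51.9% after quantile normalization. Median-ratio scaling moved the median of all genes from 0.096 to 0.0081 in FLOX and from 0.11 to 0.0052 in HKO. The 7 bile acid genes kept their negative sign under both scalings in both genotypes. With median-ratio scaling Baat changed by -1.20 in FLOX and -1.18 in HKO, and Nr1h4 by -0.17 (adjusted p = 0.0766, limma) and -0.18 (adjusted p = 0.0567, limma).

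Among the synthesis genes, Baat (ENSMUSG00000039653), the conjugating enzyme, fell most. FLOX samples held 30.5, 30.4, 29.8 and 31.6 TPM with vehicle and 13.7, 13.6, 14.8 and 12.7 TPM with palmitic acid, and HKO samples 24.8, 25.7, 27.6 and 23.7 TPM and 11.6, 12.3, 11.97 and 10.8 TPM. The highest treated sample in each genotype was far below the lowest vehicle sample. The change was -1.10 ± 0.057 on the log2 scale in FLOX (estimate ± SE, adjusted p = 9.40e-10 by limma) and -1.06 ± 0.057 in HKO (adjusted p = 1.11e-09 by limma). Only 0.801% of all tested genes in FLOX and 0.961% in HKO had a lower fitted change.

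Both enzymes of the acidic route fell more modestly. Cyp27a1 (ENSMUSG00000026170) stood at 76.8, 71.1, 67.8 and 72.7 TPM in FLOX with vehicle and at 59.3, 57.4, 53.8 and 60.96 TPM with palmitic acid. In HKO it stood at 59.5, 62.7, 61.6 and 59.9 TPM and 46.1, 49.7, 48.4 and 47.7 TPM, so the treated samples lay below the vehicle samples without overlap in each genotype. The treated mean was 80.3% of vehicle in FLOX (-0.31 ± 0.046 log2, adjusted p = 7.80e-05 by limma) and 78.8% in HKO (-0.34 ± 0.046, adjusted p = 2.55e-05). Cyp7b1 (ENSMUSG00000039519) stood at 13.9, 14.9, 15.5 and 15.6 TPM in FLOX with vehicle and at 11.1, 10.95, 11.3 and 10.8 TPM with palmitic acid. In HKO the values were 18.3, 17.6, 16.9 and 15.6 TPM and 11.2, 10.9, 12.6 and 12.7 TPM, and the 4 treated FLOX samples were the most tightly grouped of the 4 groups. Its treated mean was 73.9% of vehicle in FLOX (-0.40 ± 0.063 log2, adjusted p = 1.37e-04 by limma) and 69.4% in HKO (-0.49 ± 0.063, adjusted p = 1.38e-05).

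The canalicular transporters also fell in both genotypes. Abcb4 (ENSMUSG00000042476), the phosphatidylcholine transporter, held 12.4, 11.3, 10.7 and 11.3 TPM in FLOX with vehicle and 6.88, 5.39, 5.57 and 5.93 TPM with palmitic acid, and in HKO 13.7, 15.1, 15.7 and 15.2 TPM and 7.81, 8.45, 7.39 and 6.64 TPM. No treated sample reached the vehicle samples of its genotype, and the change was -0.84 ± 0.08 in FLOX (adjusted p = 9.47e-07 by limma) and -0.89 ± 0.08 in HKO (adjusted p = 3.45e-07). Abcb11 (ENSMUSG00000027048), the bile salt export pump, held 27.5, 23.00, 23.8 and 24.1 TPM in FLOX with vehicle and 19.3, 18.1, 17.7 and 16.5 TPM with palmitic acid. In HKO it held 19.2, 21.5, 18.98 and 17.6 TPM and 15.2, 15.3, 15.1 and 12.6 TPM, with 1 treated sample lower than the other 3. The means fell to 72.7% of vehicle in FLOX (-0.44 ± 0.077 log2, adjusted p = 4.10e-04 by limma) and 75.3% in HKO (-0.39 ± 0.077, adjusted p = 8.28e-04).

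Slc10a1 (ENSMUSG00000021135), the uptake transporter, passed the threshold in FLOX and not in HKO. FLOX samples held 7.85, 8.3, 8.03 and 7.85 TPM with vehicle and 5.21, 5.6, 4.82 and 5.37 TPM with palmitic acid, with no overlap (-0.53 ± 0.13 log2, adjusted p = 0.00455 by limma). HKO samples held 6.89, 5.46, 6.25 and 5.72 TPM with vehicle and 5.47, 3.46, 5.8 and 6.77 TPM with palmitic acid. The treated HKO samples spread around the vehicle samples, 1 of them being the lowest of all 16 and another above 3 of the 4 vehicle samples, and the change was -0.18 ± 0.13 (adjusted p = 0.284 by limma). The difference between these responses is given with the other interactions and did not pass the threshold.

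Nr1h4 (ENSMUSG00000047638), which encodes FXR, held 54.7, 51.5, 56.4 and 56.4 TPM in FLOX with vehicle and 47.6, 52.97, 54.5 and 52.5 TPM with palmitic acid. In HKO it held 43.1, 38.7, 36.2 and 41.8 TPM with vehicle and 42.04, 40.2, 37.4 and 33.6 TPM with palmitic acid, and the treated and vehicle samples overlapped in both genotypes. The change was -0.076 ± 0.07 in FLOX (95% interval -0.22 to 0.072, adjusted p = 0.422 by limma) and -0.061 ± 0.07 in HKO (95% interval -0.21 to 0.088, adjusted p = 0.516).

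**Figure D2:**
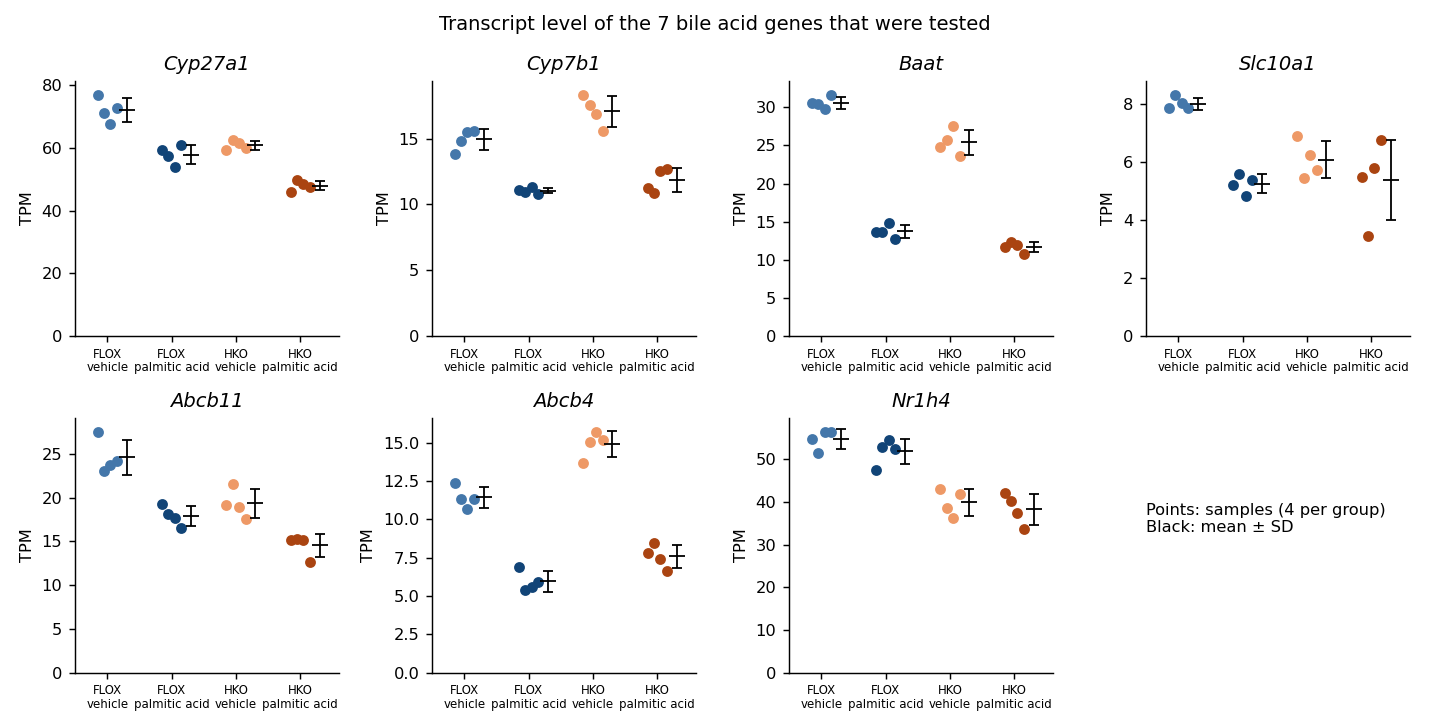
Level in TPM (y axis, from 0) of the 7 bile acid genes that passed the filter, in the 4 groups (x axis), with 1 point per sample and the mean ± SD in black. The treated points lie below the vehicle points for Baat and Abcb4 in both genotypes, while for Nr1h4 the HKO points (33.6 to 43.1 TPM) lie below the FLOX points (47.6 to 56.4 TPM) in both treatments.

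Between HKO and FLOX cells a different set of changes was seen, of which the receptor gene was the largest. Cre, the loss of Smpd3 and any difference of mouse or preparation go together in these groups. Their effects cannot be told apart. With vehicle 4 of the 7 genes were lower in HKO (Nr1h4, Abcb11, Baat and Cyp27a1) and 1 was higher (Abcb4). Over all genes tested 11.7% passed, 4.11% higher and 7.56% lower. The median log2 difference of the 7 genes was -0.26, beside -0.023 over all genes. After median-ratio scaling 57.8% of the genes past the threshold were higher in HKO, and after quantile normalization 51.9%, against 35.2% without. The 5 calls held under both scalings and in every other alternative that was run, including without each sample in turn.

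With vehicle Nr1h4 averaged 54.7 ± 2.3 TPM in FLOX cells and 39.95 ± 3.1 TPM in HKO cells, 73.0% of the FLOX level. Every HKO sample was below every FLOX sample, and the difference was -0.45 ± 0.07 on the log2 scale (adjusted p = 4.97e-04 by limma). Abcb11 was 24.6 ± 1.98 and 19.3 ± 1.6 TPM, 78.6% of the FLOX level (-0.33 ± 0.077, adjusted p = 0.0103 by limma). Abcb4 went the other way, with 11.4 ± 0.71 TPM in FLOX and 14.9 ± 0.85 TPM in HKO, 130.5% of the FLOX level (0.36 ± 0.08, adjusted p = 0.00862). The lowest HKO sample of Abcb4 held 13.7 TPM and the highest FLOX sample 12.4 TPM. Baat was 83.2% of its FLOX level (-0.26 ± 0.057, adjusted p = 0.00774) and Cyp27a1 84.5% (-0.24 ± 0.046, adjusted p = 0.00283), both without overlap.

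The other 2 tested genes had an unadjusted p under 0.05 with vehicle but missed the threshold. Slc10a1 averaged 8.01 ± 0.21 TPM in FLOX cells and 6.08 ± 0.63 TPM in HKO cells, with no overlap (-0.35 ± 0.13, adjusted p = 0.0904 by limma). It passed when HKO palmitic acid replicate 2, which enters only the shared spread here, was left out (adjusted p = 0.00988) and when only these 2 groups were fitted (adjusted p = 0.0207). Cyp7b1 averaged 14.9 ± 0.8 TPM in FLOX cells and 17.1 ± 1.2 TPM in HKO cells, with overlap (0.18 ± 0.063, adjusted p = 0.08), and passed without HKO vehicle replicate 4 (adjusted p = 0.0458).

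With palmitic acid the same 5 genes passed between genotypes, 4 lower and 1 higher in HKO, beside 9.74% of all genes tested, 4.24% higher and 5.50% lower. The median log2 difference of the 7 genes was -0.22, beside -0.0077 over all genes. Nr1h4 averaged 51.9 ± 2.99 TPM in FLOX cells and 38.3 ± 3.7 TPM in HKO cells, 73.8% of the FLOX level (-0.43 ± 0.07, adjusted p = 7.03e-04 by limma). Cyp27a1 was 57.9 ± 3.1 and 47.96 ± 1.5 TPM (-0.26 ± 0.046, adjusted p = 0.0013). Neither gene had an HKO sample as high as the lowest FLOX sample. Abcb11 was 81.4% of its FLOX level (-0.28 ± 0.077, adjusted p = 0.029), Baat 85.1% (-0.22 ± 0.057, adjusted p = 0.0248) and Abcb4 127.4% (0.30 ± 0.08, adjusted p = 0.0241). For Abcb4 the groups overlapped, since FLOX replicate 1 held 6.88 TPM and HKO replicate 4 held 6.64 TPM. Cyp7b1 (0.09 ± 0.063, adjusted p = 0.448) and Slc10a1 (95% interval -0.27 to 0.27, adjusted p = 0.998) did not pass, and the sign of Slc10a1 depended on the scaling and on single samples.

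Nr1h4 and Cyp27a1 passed in all 25 alternatives of the palmitic acid comparison, and the other 3 calls did not. Only 2 genes passed when FLOX palmitic acid replicate 3 was left out or when only the 2 groups were fitted, and 3 passed without FLOX palmitic acid replicate 2 or without HKO palmitic acid replicate 1 or 4. Of all genes tested 7.96%, 5.64%, 8.46%, 7.34% and 8.74% passed in these alternatives, in the order given. Abcb11 was also lost without FLOX palmitic acid replicate 1 (adjusted p = 0.0754, limma), and Abcb4 without FLOX palmitic acid replicate 4 (adjusted p = 0.0535) or HKO palmitic acid replicate 2 (adjusted p = 0.0822). Over all alternatives the adjusted p ranged from 0.0173 to 0.0855 for Abcb11, from 0.00556 to 0.113 for Abcb4 and from 0.0194 to 0.111 for Baat. Of all genes past the threshold in this comparison 43.5% were higher in HKO, against 55.8% after median-ratio scaling. The comparisons of the genotypes with vehicle and with palmitic acid share no samples, while each shares 1 group with each comparison of palmitic acid against vehicle.

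The summed markers of some other cells differed with the genotype as well. Those of endothelial, stellate and erythroid cells and of lymphocytes and neutrophils overlapped between the genotypes in both treatments. Cholangiocyte markers summed higher in HKO than in FLOX in both treatments without overlap, as did the macrophage markers. These 2 sums were mostly Spp1 and Cd68. Of the 6 tested cholangiocyte markers 2 were higher and 1 lower with vehicle, and 1 was higher and 0 lower with palmitic acid. Over all genes tested 4.11% passed as higher and 7.56% as lower with vehicle, and 4.24% and 5.50% with palmitic acid. Only 1 macrophage marker was tested, and it was higher in both treatments. The hepatocyte markers were higher in HKO with vehicle (5 of 10 higher and 1 lower) and with palmitic acid (7 higher and 1 lower). Of the 5 bile acid genes past the threshold, 4 had the opposite sign to the hepatocyte sum and 1 had the same sign. The part of the marker differences in the results for the bile acid genes was not tested.

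**Figure D3:**
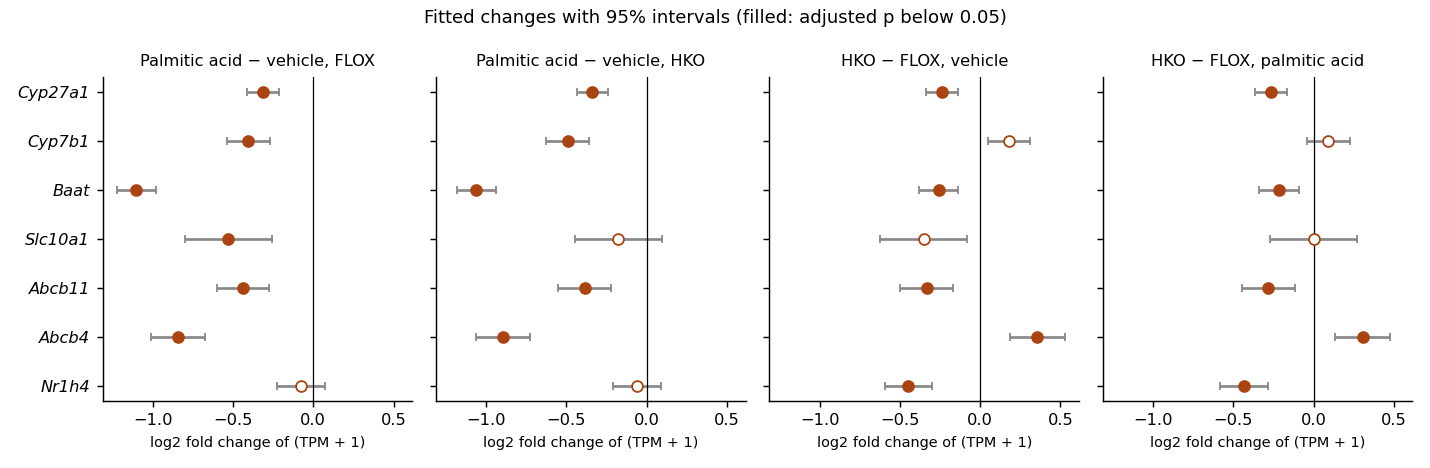
Fitted log2 fold change of (TPM + 1) (x axis) with its 95% interval for the 7 tested genes (y axis) in the 4 comparisons of 2 groups, where filled points have an adjusted p below 0.05. Baat and Abcb4 lie farthest left with palmitic acid in both genotypes, at -0.84 or lower, and between genotypes Abcb4 lies to the right of 0 and Nr1h4 to the left.

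None of the 7 genes had a response to palmitic acid that differed between the genotypes by the test of the interaction, the HKO response minus the FLOX response. The adjusted p ranged from 0.695 to 0.990 (limma), 0 of 7 had an unadjusted p under 0.05, and 23 of all genes tested (0.194%) passed. Slc10a1 had the widest interval, with an interaction of 0.35 ± 0.18 and a 95% interval of -0.03 to 0.73. For the others the 95% intervals were -0.16 to 0.11 for Cyp27a1, -0.28 to 0.10 for Cyp7b1, -0.13 to 0.21 for Baat, -0.18 to 0.28 for Abcb11, -0.29 to 0.19 for Abcb4 and -0.19 to 0.23 for Nr1h4. A miss of the threshold does not show that the responses were alike, and these intervals give the range of differences that the samples leave possible.

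The opposite signs of the canalicular pair between genotypes appear in the ratio of their levels within a sample. Abcb4 over Abcb11 was 0.465 ± 0.020 in FLOX with vehicle (0.449 to 0.493) and 0.775 ± 0.082 in HKO with vehicle (0.699 to 0.863). With palmitic acid it was 0.332 ± 0.031 in FLOX (0.298 to 0.360) and 0.521 ± 0.026 in HKO (0.489 to 0.553). The ratio was thus lower with palmitic acid in each genotype and higher in HKO in each treatment, with no overlap in any of these pairs of groups. It was chosen after the levels had been seen and was not tested.

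**Figure D4:**
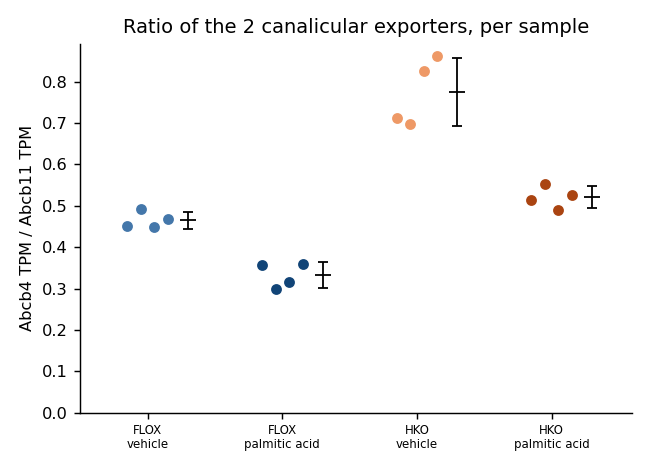
Abcb4 TPM divided by Abcb11 TPM within each sample (y axis, from 0) in the 4 groups (x axis), with 1 point per sample and the mean ± SD in black. HKO samples with vehicle lie highest, at 0.699 to 0.863, and FLOX samples with palmitic acid lowest, at 0.298 to 0.360.

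Other genes of the pathway were counted from 3 wider lists, of which 37 of 47 genes were tested. With palmitic acid in FLOX, 8 of 14 tested genes of synthesis and conjugation fell and 2 rose, 5 of 11 transport genes fell and 1 rose, and 4 of 12 receptors and regulators fell and 1 rose. In HKO the counts were 10 lower and 1 higher, 5 lower and 1 higher, and 5 lower and 2 higher. Of all genes tested 11.5% fell and 23.0% rose in FLOX, and 13.1% fell and 29.4% rose in HKO. The medians of the lists were -0.25, -0.090 and -0.14 in FLOX and -0.31, -0.17 and -0.16 in HKO. Fgf15, the intestinal hormone that FXR induces, was listed at 0 in all samples, and Klb, the hepatocyte coreceptor for it, reached at most 0.43 TPM.

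The 4 largest changes of these lists on the log2(TPM + 1) scale in each genotype were falls, in Cyp2c70, Cyp39a1 and Slc51b in both, with Slc10a2 as the other in FLOX and Abcg5 as the other in HKO. Cyp2c70, which makes the muricholic acids of mice, was the most abundant, with 911 ± 10 TPM in FLOX with vehicle and 430 ± 11 TPM with palmitic acid (-1.08 ± 0.027, adjusted p = 3.94e-13 by limma). In HKO it was 802 ± 22 and 345 ± 6.2 TPM (-1.21 ± 0.027, adjusted p = 6.73e-14). Cyp39a1, another oxysterol hydroxylase, fell from 11.3 ± 0.81 to 4.57 ± 0.13 TPM in FLOX (-1.14 ± 0.057, adjusted p = 7.17e-10) and from 13.5 ± 0.17 to 5.84 ± 0.27 TPM in HKO (-1.09 ± 0.057, adjusted p = 8.54e-10). Slc51b, a subunit of the basolateral exporter OST, fell in FLOX (-1.05 ± 0.16, adjusted p = 1.05e-04) and HKO (-1.28 ± 0.16, adjusted p = 1.07e-05), while its partner Slc51a reached at most 0.44 TPM in any sample. Slc10a2, the apical bile acid carrier, fell in FLOX (-0.83 ± 0.081, adjusted p = 1.23e-06) and HKO (-0.80 ± 0.081, adjusted p = 1.30e-06). Abcg5, a subunit of the sterol exporter of the canaliculus, also fell in FLOX (-0.51 ± 0.1, adjusted p = 0.00119) and HKO (-0.87 ± 0.1, adjusted p = 6.52e-06). Its level was too low to be tested in the alternative with a filter of 5 TPM. No gene of the wider lists passed the test of the interaction in limma, and 2, Cyp2c70 and Abcg5, had an unadjusted p under 0.05 there.

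Between genotypes 4 of the 37 tested genes of the wider lists passed with vehicle and 5 of 37 with palmitic acid, beside 11.7% and 9.74% of all genes tested. With vehicle 3 synthesis genes were higher in HKO and 1 was lower, and no tested gene of the other 2 lists passed in limma, although 4 transport genes and 1 regulator had an unadjusted p under 0.05. Cyp39a1 (0.25 ± 0.057, adjusted p = 0.0107 by limma) and Scp2, a carrier and thiolase of the peroxisome (0.20 ± 0.039, adjusted p = 0.00309), were higher. Slc27a5, the bile acyl-CoA synthetase that prepares bile acids for BAAT, was also higher (0.14 ± 0.043, adjusted p = 0.0409), but it missed the threshold in 15 of 25 alternatives. Cyp2c70 was lower (-0.18 ± 0.027, adjusted p = 2.82e-04). With palmitic acid the counts were 2 higher and 1 lower in synthesis, 1 lower in transport and 1 lower among regulators. Cyp39a1 was again higher (0.30 ± 0.057, adjusted p = 0.0032) and Cyp2c70 lower (-0.32 ± 0.027, adjusted p = 1.03e-06). The uptake carrier Slco1a4 (-0.56 ± 0.15, adjusted p = 0.0258) and the xenobiotic and bile acid sensor Nr1i2 (-0.25 ± 0.065, adjusted p = 0.0221) were lower, but missed the threshold in 8 of 24 and 6 of 25 alternatives. Slco1a4 was too low to be tested in the alternative with a filter of 5 TPM.

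**Figure D5:**
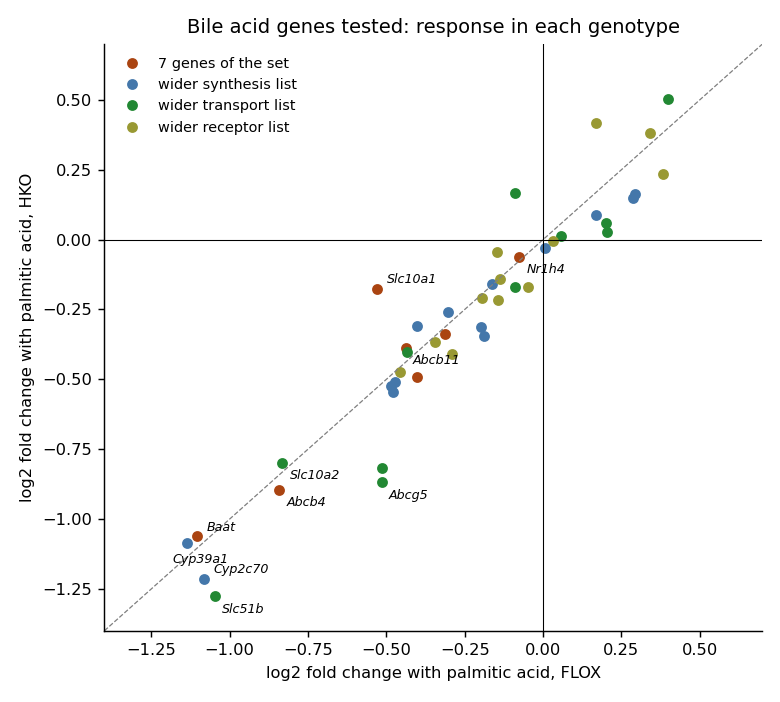
Fitted log2 fold change with palmitic acid in FLOX (x axis) and in HKO (y axis), with 1 point per tested gene, for the 7 genes of the set and the 37 tested genes of the wider lists. The dashed line marks equal change, and Slc10a1 is the gene of the set that lies farthest above it, at -0.53 in FLOX and -0.18 in HKO.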

How the data were processed

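Per the labels' protocols, stranded libraries were made from total RNA of primary mouse hepatocytes. The authors deposited TPM values, to 2 decimals, for 55416 Ensembl IDs of the mouse. Per the submitters' processing notes RSEM 1.3.3 was used, and the genome build listed there is human and so cannot be that of mouse IDs. No aligner or annotation is given in the sources used here. Deposited TPM columns summed to 975816 to 984870. TPM keeps no depth, so it is unknown.

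Symbols from a gene-name table matched 52083 IDs. Genes with at least 1 TPM in at least 4 of 16 samples (11858) were tested on log2(TPM + 1), with a pseudocount of 1, by limma 3.58.1 in R 4.3.3. A single fit over the 16 samples estimated 1 mean for each group, with a trend of variance on mean level. Tests were two-sided and Benjamini-Hochberg adjustment ran over the genes tested in each of 5 comparisons. The single low gene Cyp8b1 was tested by exact permutation with SciPy 1.17.1. The script was tested on simulated data. No batch or animal is stated, so none was modelled.

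The 10 genes, the 3 wider lists, the marker lists and the motifs were chosen with earlier results of these data known. All 10 genes are named. Of the wider lists up to 4 genes per comparison are named, those past the threshold without overlap between groups and with the largest change. Hence Klb, Fgf15 and Slc51a are named outside that rule, after their values were seen. The alternatives tried were quantile normalization or median-ratio scaling, a filter at 5 TPM or none, a pseudocount of 0.1, the replicate block, a fit of only the groups compared, no trend, both FLOX samples numbered 1 left out, and each of the 16 samples left out. Promoters were read from a RefSeq table of GRCm38.p6, whose build need not be that of the deposited values.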

Additional observations from a re-analysis of the deposited data

Results flagged for a closer look

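In 80 groups of 4 samples, over the 10 genes, the 9 named genes of the wider lists and Smpd3, 9 had 1 sample that lay far from the other 3, where chance gives about 1 in 20, or 4. Of these, 5 concern Cyp7a1 and Nr0b2, which are at or near 0. Cyp7a1 held 0.04 TPM in FLOX vehicle replicate 2, against 0.01 in the other 3, and 0.04 TPM in HKO vehicle replicate 4, against 0. Nr0b2 was listed at 0 TPM in FLOX palmitic acid replicate 3, against 0.05 to 0.06, and held 0.06 TPM in HKO vehicle replicate 3 and 0.27 TPM in HKO palmitic acid replicate 4, with the other 3 samples of each group at 0.

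Abcb11 held 12.62 TPM in HKO palmitic acid replicate 4, below the 15.11 to 15.29 TPM of the other 3. Without that sample the difference between genotypes with palmitic acid was -0.22 and missed the threshold (adjusted p = 0.0855, limma). Cyp39a1 held 6.24 TPM in HKO palmitic acid replicate 2, against 5.67 to 5.74 TPM. Slc10a2 held 2.57 TPM in that same sample, against 2.78 to 2.81 TPM. Nr1i2 held 17.36 TPM in HKO vehicle replicate 4, above the 14.70 to 15.15 TPM of the other 3.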

How the results depend on the processing

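The 7 tested genes gave 28 results in the 4 comparisons of 2 groups. Over 700 alternative values 672 kept their direction and their side of the threshold, 17 fell below it, 3 rose above it and 8 changed sign. The counts of these genes past the threshold were 6 and 5 for palmitic acid in FLOX and HKO and 0 for the interaction in every alternative, and 5 or 6 between genotypes with vehicle. Between genotypes with palmitic acid the count was 5, and 2 when only the groups compared were fitted, 4 without both FLOX samples numbered 1 or without the filter, and 2 to 5 when 1 sample was left out. In these alternatives 14% to 44.7% of all genes tested passed with palmitic acid in FLOX and 18% to 50.1% in HKO. The share was 4.2% to 15.2% between genotypes with vehicle, 3.8% to 12.5% with palmitic acid and 0.0253% to 0.294% for the interaction. The 8 sign changes were those of Slc10a1 between genotypes with palmitic acid, at 0.0012, which became -0.0048 with a pseudocount of 0.1, -0.015 with quantile normalization, -0.0014 without both FLOX samples numbered 1, and -0.10 to 0.16 when 1 sample was left out. For the interaction 11 of 168 values changed sign, all with an adjusted p above 0.94 (limma). Leaving out 1 sample gave -0.060 to 0.0031 for Cyp27a1, -0.0018 to 0.11 for Abcb11, -0.10 to 0.010 for Abcb4 and -0.030 to 0.075 for Nr1h4, and Nr1h4 was -0.034 with quantile normalization, -0.025 without both FLOX samples numbered 1 and -0.0065 with median-ratio scaling. Over all genes the interaction gave 23 calls, 9 with median-ratio scaling, 5 without the trend and 8 to 24 when 1 sample was left out. Between genotypes with palmitic acid the 1155 calls became 669 when only these groups were fitted. In the wider lists the transport genes called with palmitic acid went from 6 to 2 in each genotype with the filter of 5 TPM. Abcg5 and Slco1a4 were among the genes that this filter left untested. The receptors and regulators called in FLOX went from 5 to 8 with median-ratio scaling. Between genotypes the transport count went from 0 to 1 with vehicle and from 1 to 0 or 2 with palmitic acid, and with palmitic acid the regulators went from 1 to 0 or 2 and the synthesis genes from 3 to 5. The fit of only the groups compared was not run for the interaction. Samples were not paired by the numbers in their titles in the main fit. Deviations of same-numbered samples correlated at -0.15 to 0.13, and some but not all samples correlated best with their own number. Such weak correlations cannot decide whether same-numbered samples share a mouse or a preparation, which is not stated. With the replicate block the bile acid genes past the threshold numbered 6, 5, 5, 5 and 0, and the calls of the interaction over all genes 3. The shares of all genes tested were then 26.9%, 35.7%, 10%, 8.53% and 0.0253%. No depth is known, so the counting limit of low levels such as those of Cyp7a1 and Nr0b2 cannot be given.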
